A study of Mus musculus with 9 samples.

Results

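The genes described here are the 4 Notch receptors of the mouse (Notch1, Notch2, Notch3 and Notch4) and 4 of their ligands (Jag1, Jag2, Dll1 and Dll4), taken from a list of names and matched by Ensembl identifier. All 8 were found among the 52636 genes of the table. They were followed across 16 deposited cell labels in single cells of the thyroid from male C57BL/6 mice, counted as unique molecular identifiers (UMIs) with a droplet 3′ assay. Each of the 9 samples was a digest of thyroids pooled from 6 mice, taken 7 days after 1 intraperitoneal injection of antibody, and there were 3 samples in each of 3 groups. RW mice received 40 mg/kg of an antibody against ragweed, the control. aJ1aJ2 mice received antibodies that block Jag1 and Jag2, 20 mg/kg each. aN1aN2 mice received antibodies that block Notch1 (5 mg/kg) and Notch2 (10 mg/kg). The antibodies act on the proteins, whereas the assay counts the messenger RNA, so a level given below is not a measure of how much receptor or ligand was blocked. The labels name no genetic change in any group. The mice were from 10 weeks old, with an upper age of 12 weeks in the design text and 14 weeks in the protocol.

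Notch signalling passes between cells in contact. A ligand of the Jagged or Delta-like family on the sending cell binds a receptor on the receiving cell, the receptor is cut, and its intracellular part moves to the nucleus, where it joins the DNA-binding protein Rbpj to switch on targets such as the Hey genes. In blood vessels Dll4 and Notch1 restrain sprouting and are tied to arterial identity, Notch4 is largely an endothelial receptor, and Notch3 is the receptor of smooth muscle cells and pericytes. The thyroid follicle is wrapped in a dense capillary bed, so its thyrocytes lie close to endothelial cells.

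The 9 samples held 583 to 1805 cells and 3013324 to 11880793 UMIs. The labels were checked against marker genes in RW. Th1 held 92388 CPM (counts per 1e6 counts of the summed label) of 7 thyrocyte markers against 4119 in the other labels, and EC1 held 13155 CPM of 7 endothelial markers against 826. EC3 was mixed: its summed level of 5 lymphatic markers was 2730 CPM against 44 elsewhere, of 5 arterial markers 1228 against 59, and of 7 smooth muscle or pericyte (mural) markers 3547 against 445. It is therefore called by its label only. EC2 also held mural markers, at 600 to 2193 CPM in the RW pools, against 62.8 to 214 in EC1. In the aN1aN2 pools EC2 held 1226 to 7418 CPM of them. SM held 34793 CPM of the mural markers, F 36163 of 5 fibroblast markers, M 11126 of 6 macrophage markers and S 14450 of 5 Schwann cell markers. By the numbers in their titles the samples form 3 series, and all 3 aN1aN2 samples, with no others, make up 1 of them, so receptor blockade and that series cannot be told apart. In all, 15 cell barcodes occurred in 2 or more libraries, 30 cells.

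In the mouse genome (GRCm38, GENCODE M21) 3 of the 8 genes lie on chromosome 2: Notch1 at 26457903 to 26516663, Jag1 at 137081456 to 137116644 and Dll4 at 119325784 to 119335962. Another 3 lie on chromosome 17: Notch3 at 32120820 to 32166852, Notch4 at 34564268 to 34588503 and Dll1 at 15367354 to 15376872. Notch2 lies on chromosome 3 at 98013527 to 98150361 and Jag2 on chromosome 12 at 112907819 to 112929776. All are protein-coding. The sequences just upstream of 3 genes are shown because the results turn on them: Dll4 and Notch4 had the 2 most alike patterns over cell labels among the members yet differed in the sign of their change after receptor blockade, and Notch2 had the pattern least like that of Dll4. They are from RefSeq, build GRCm38.p6, plus strand, 5′ to 3′, and end before the first base of the gene in both annotations: chr2:119325534-119325783 for Dll4 (65.6% G or C), chr17:34564045-34564267 for Notch4 (59.2%) and chr3:98013288-98013526 for Notch2 (74.1%).
Dll4: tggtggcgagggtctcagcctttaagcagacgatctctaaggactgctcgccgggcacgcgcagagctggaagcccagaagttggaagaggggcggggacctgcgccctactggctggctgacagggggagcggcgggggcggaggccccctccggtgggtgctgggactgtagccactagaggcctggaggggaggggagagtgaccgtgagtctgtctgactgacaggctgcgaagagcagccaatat
Notch4: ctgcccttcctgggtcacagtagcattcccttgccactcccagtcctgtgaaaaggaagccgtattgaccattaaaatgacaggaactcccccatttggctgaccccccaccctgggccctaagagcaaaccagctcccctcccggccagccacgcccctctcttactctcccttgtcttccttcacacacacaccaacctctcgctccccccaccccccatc
Notch2: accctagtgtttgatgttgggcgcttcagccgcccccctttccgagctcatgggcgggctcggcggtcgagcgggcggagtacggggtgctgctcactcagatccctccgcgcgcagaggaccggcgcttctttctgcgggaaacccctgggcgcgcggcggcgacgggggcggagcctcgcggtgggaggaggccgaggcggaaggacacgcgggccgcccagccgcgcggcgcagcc
A match to a motif would be in capitals. Over the 250 bases before the RefSeq start, 2 short motifs were searched on both strands: TGGGAA, the core bound by Rbpj, and CCGGAA, a core bound by ETS factors. Both end in the letters GGAA. None of the windows of the 8 members, Dll1 having 2, held either of them. Of all 32851 windows of that length in the table, 21.6% held the first motif and 12.0% the second. The absence says only that these letters are not in these windows.

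In RW, ligand RNA came mainly from the 4 EC labels, of which EC3 is mixed and EC2 also holds mural markers. EC1 to EC4 held 31.6% of the cells and 26.4% of all UMIs, but 80.8% of the 3621 ligand UMIs, with 74.8% to 88.7% in single samples. They also held 60.7% of the 4973 receptor UMIs, and Th1 held 25.8%. For ligands, Th1 held 12.6%. Part of both Th1 shares lay in Th1 cells that carried endothelial markers, as given below. EC3 on its own held 26.6% of the ligand and 13.5% of the receptor UMIs. EC1 held the most of both, with 46.3% of ligand and 40.2% of receptor UMIs.

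**Figure D1:**
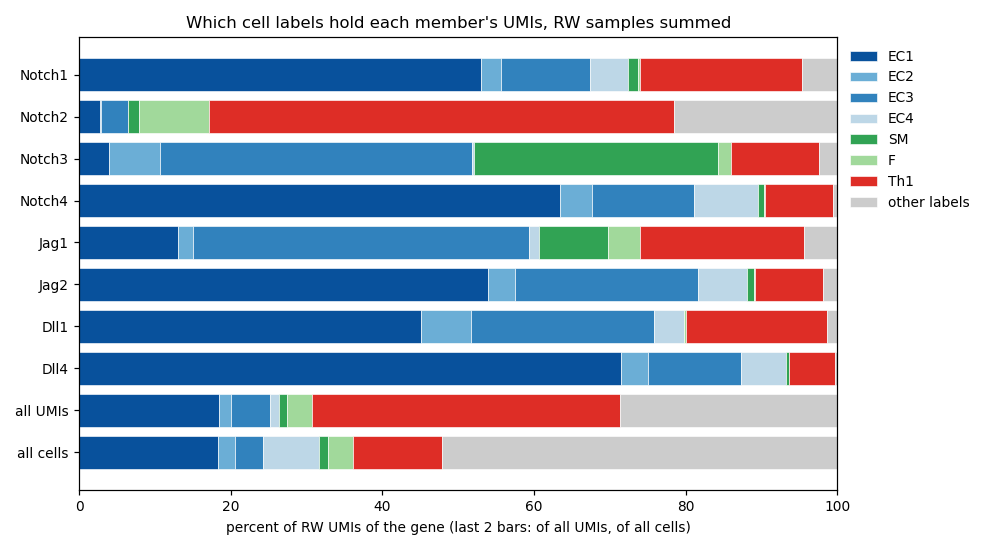
Share of each member's RW UMIs by deposited cell label, with the share of all UMIs and of all cells in the last 2 bars. Blue segments are EC1 to EC4 and red is Th1: Dll4 lies 93.2% in the blue segments, and Notch2 lies 61.3% in the red one.

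Jag1 was the ligand with the highest level in EC3, which held the other ligands too. Levels below are in CPM per sample, for samples with at least 20 cells of the label, in the order RW 1, RW 2, RW 3. In EC3, Jag1 was at 366, 273 and 365 CPM. In EC1 it was at 26.3, 32.7 and 26.5 CPM. The EC3 range stood clear of that of every other label with at least 2 RW samples, and 44.4% of all Jag1 UMIs were in EC3. In SM, which had 20 cells only in RW 3, Jag1 was at 323 CPM. Th1 was seventh by level, below EC1 with no overlap, at 24.0, 24.7 and 17.4 CPM, although it held 21.7% of the UMIs. F was at 30.1 to 62.2 CPM, and its range overlapped those of EC2 and S.

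Jag2 and Dll1 were shared among the EC labels. Jag2 was at 298, 123 and 187 CPM in EC4, at 165, 200 and 208 in EC3 and at 135, 148 and 96.5 in EC1. The ranges of EC4 and EC3 overlapped, and that of EC1 lay below EC3. Every label outside EC1 to EC4 with at least 2 RW samples averaged 13.9 CPM or less. Dll1, the scarcest ligand by UMIs (286 in RW), was at 55.0, 40.0 and 47.5 CPM in EC3, and EC2, EC4 and EC1 followed with overlapping ranges between neighbours. In Th1 it was at 6.59, 4.01 and 3.28 CPM.

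Dll4 had the largest part of its UMIs in the EC labels among the members. It was at 138, 222 and 226 CPM in EC4, 133, 181 and 158 in EC1, and 101, 91.5 and 87.5 in EC3, and 93.2% of its 1109 UMIs were in EC1 to EC4. In F, M, T1 and S no RW sample had a Dll4 UMI. Th1 showed 7.91, 2.68 and 5.41 CPM, but these 68 UMIs all lay in the 55 of 425 Th1 cells that carried more than 2 UMIs of the endothelial markers, a split made after seeing the data, as was the one by mural markers below. The other 370 Th1 cells held 0 Dll4 UMIs among 8415252 UMIs. The same split left 477 of 594 Notch2 UMIs and 145 of 236 Jag1 UMIs in those 370 cells. Of the other members it left there 285 of 545 Notch1, 34 of 53 Dll1, 31 of 101 Jag2, 19 of 86 Notch4 and 16 of 59 Notch3 UMIs. The 55 cells held 2821438 of the 11236690 Th1 UMIs.

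Notch1 was highest in the EC labels, and Th1 held the next largest part of its UMIs. In EC4 it was at 327, 480 and 319 CPM, in EC1 at 268, 297 and 246, and in EC3 at 186, 244 and 185. The EC4 range lay above that of EC1 and that of EC1 just above that of EC3. Th1 was at 55.6, 44.1 and 43.7 CPM, and M, T1 and Th3 were lower, at means of 17.1 to 27.4. In Th1, 260 of 545 Notch1 UMIs were in the 55 cells above 2 endothelial marker UMIs, at 92.2 CPM against 33.9 in the other 370. After thinning each cell to 1000 UMIs, 34.1% of 126 EC4 cells had a Notch1 UMI (exact 95% interval 25.9 to 43.1), against 0 of 296 Eryth1 cells, which allows up to 1.01%. Before thinning the EC4 share was 28.7%, at a median of 970.5 UMIs per cell, and the Eryth1 share 0.775%, at 2021 UMIs.

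Notch4 followed Dll4 from label to label. It was at 203, 160 and 311 CPM in EC4 and at 112, 118 and 126 in EC1, and 89.5% of its UMIs were in EC1 to EC4. Over the means of 12 labels in RW, on log2(CPM + 1), Pearson's r of Notch4 with Dll4 was 0.99. These points share libraries, and cells shaped the labels, so r is a description. The 3 genes most like Dll4 of 15365 were Myct1, Robo4 and Gpr4, at r of 0.99 or above. For Notch4 they were Dll4, Myct1 and Robo4, and for Notch1 they were Itga6, Arhgap31 and B330016D10Rik.

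Notch2 was highest in labels other than EC1 to EC4. It was at 57.6, 54.8 and 48.3 CPM in Th1, at 79.4, 111 and 77.4 in F and at 117, 110 and 58.8 in M. EC1 was at 6.57, 4.56 and 4.94 CPM, and EC4 held no Notch2 UMI in any RW sample. Th1 held 61.3% of the 969 UMIs. S was at 37.1 CPM in RW 1 and 261 in RW 3, so its mean, the highest of the labels, rests on 1 sample. The ranges of S, M, F, T1, Th1, Th3 and EC3 overlapped between neighbours, and only the step from EC3 down to EC1 separated labels. Its r with Dll4 over labels was -0.46, the lowest of any pair of members. The genes most like Notch2 were Celf2, Pla2g4a and Agpat2.

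**Figure D2:**
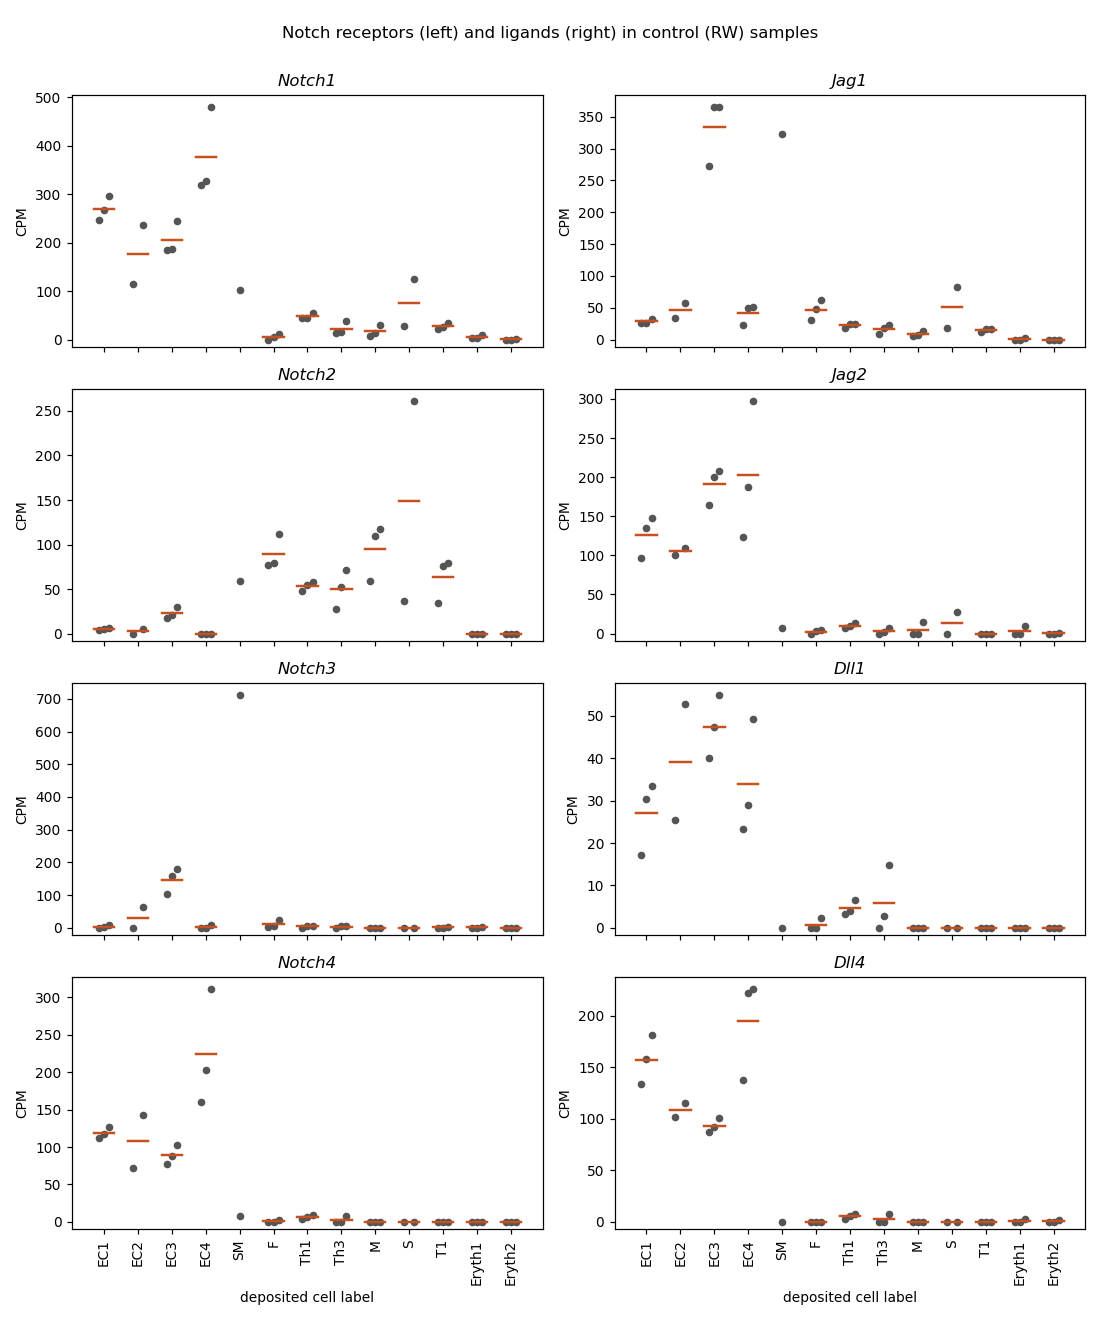
CPM of each member (vertical axes) in each deposited cell label (horizontal axes) in control samples; points are pools with at least 20 cells of the label, orange lines their mean. Notch2 reads near 0 in EC1, EC2 and EC4 where Dll4 and Notch4 are high, and SM has 1 point, at 713 CPM for Notch3.

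Notch3 marked mural cells, also inside an EC label. SM was at 713 CPM in RW 3, and 55.6% of the 36 SM cells had a Notch3 UMI at 1000 UMIs per cell. EC3 was at 159, 103 and 180 CPM and held 41.3% of the 509 Notch3 UMIs. Within EC3, 208 of the 210 UMIs were in the 35 of 134 RW cells with more than 2 mural marker UMIs, and 2 were in the other 99 cells. Those 35 cells had a median of 15656 UMIs and the other 99 of 4945. For Jag1 the split differed: 258 of 482 EC3 UMIs (53.5%) were in the 99 cells, at 360 CPM against 313 in the 35. EC2 showed the same split, with 33 of its 34 Notch3 UMIs in cells above 2 mural marker UMIs. In EC1 and EC4, Notch3 averaged 3.41 and 2.42 CPM.

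The remaining likeness lists, by the same measure over 12 labels, were Prrt4, Nog and Gm43958 for Notch3, Lgalsl, Il6st and Plec for Jag1, Pcdh17, Pcp4l1 and Pkn3 for Jag2, and Tmem44, Fgfr3 and Apold1 for Dll1. The lowest of these r values, for Notch3, was 0.92. T2, with 272 of its 286 RW cells from RW 2, held 42 Notch1 UMIs and 22 Notch2 UMIs in RW. P, the parathyroid label by its markers, held 8 Notch2 UMIs and at most 1 of any other member, and Th2 had no more than 5 UMIs of any member. In Eryth1 and Eryth2 every member averaged under 5 CPM.

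Ligand blockade left the members without a called change in any single label. The question was whether blocking Jag1 and Jag2 changed the RNA of the receptors and ligands. The UMIs of each label were added up within a sample and tested by quasi-likelihood in edgeR, with p adjusted by Benjamini-Hochberg over all genes of the label and a threshold of 0.05. Against RW, 0 of 34 tests of members in 9 labels were called, 5 had an unadjusted p under 0.05, and DESeq2 also called 0. Few genes of any kind were called there: 1.42% in EC1, 1.91% in EC2, 0.0618% in EC3, 0.871% in EC4, 0.579% in F, 0.612% in Th1 and 0.0% in M, S and T1. The 5 are given as values. The p-values measure the spread between pools, 3 per group, except that only 2 pools had 20 cells in EC3 of aJ1aJ2, T1 of aJ1aJ2, SM of aJ1aJ2, and EC2 and S of both RW and aJ1aJ2. In SM, RW had 1 such pool, so SM was not tested against RW.

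The 5 values were in EC3, EC1 and Th1, and the largest difference was that of Notch3 in EC3. EC3 Notch3 was at 57.2 and 39.9 CPM in aJ1aJ2 3 and 4, below all RW pools, a log2 difference of -1.55 (SE 0.40, edgeR adjusted p = 0.275). EC3 Jag1, one of the blocked ligands, was at 208 and 214 CPM against 273 to 366, a log2 difference of -0.66 (SE 0.26, edgeR adjusted p = 0.572). With 2 pools against 3, 25.7% of all EC3 genes did not overlap between these groups. Th1 Jag1 was at 30.9, 27.0 and 42.2 CPM, above all RW pools, with a log2 difference of 0.60 (SE 0.19, edgeR adjusted p = 0.193), where 15.3% of all Th1 genes did not overlap. EC1 Dll1, the second largest, was at 16.1, 12.0 and 18.6 CPM with ranges that overlapped, a log2 difference of -0.76 (SE 0.30, edgeR adjusted p = 0.260). EC3 Notch1 lay above RW, at 300 and 261 CPM, with a log2 difference of 0.45 (SE 0.20, edgeR adjusted p = 0.657). Dll1 in EC1 would be called without RW 3 (0.0357) and Notch3 in EC3 with no filter on low counts (0.000498). Notch2 in S, with 2 pools per group, would be called without RW 1 (0.0496), but that leaves RW 3 alone, assumed to vary like the aJ1aJ2 pools. With EC1 to EC4 summed, where 1.16% of genes were called, Notch3 fell by 1.32 on the log2 scale (SE 0.22, edgeR adjusted p = 0.00981). That call was lost without aJ1aJ2 3 (0.0597) or aJ1aJ2 4 (0.0803), without the deepest 5% of cells (0.168) and with the aN1aN2 pools left out of the fit (0.0514). The makeup of the sum differed between the groups: EC2 gave 5.71% of its UMIs in RW and 15.3% in aJ1aJ2, and EC3 19.5% and 16.0%. The part of this in the summed changes was not tested. Jag1 in that sum differed by -0.74 (SE 0.19, edgeR adjusted p = 0.0724). It was called by DESeq2 (-0.76, adjusted p = 0.0372), with no filter on low counts (8.97e-05), with the series as a term (0.0235) and without RW 3 (0.0443).

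The mural content of EC3 moved with these values. The summed level of the 7 mural markers in EC3 was 2700 to 4350 CPM in RW and 903 to 1455 CPM in aJ1aJ2, with 6 or 7 of the 7 markers detected in each pool. The share of EC3 cells above 2 mural marker UMIs was 24.1% to 29.4% in RW and 11.8% to 17.6% in aJ1aJ2. Cells were not thinned for this share. The median EC3 cell had 5175.5 to 7011 UMIs in the RW pools, and 5976, 3856 and 4298 in aJ1aJ2 1, 3 and 4. The part of depth in the share was not tested. EC3 of aJ1aJ2 1, which had 17 cells and did not enter the fit, also stood apart in lymphatic markers, at 15853 CPM against 747 to 5051 in the other 8 pools. EC3 of RW 3 stood apart in thyrocyte markers, at 6097 CPM against 174 to 699. Endothelial marker sums in EC3 were 5028 to 5914 CPM in aJ1aJ2 and 3938 to 4952 in RW. Venous sums were 692, 1238 and 975 CPM in aJ1aJ2 1, 3 and 4 and 596 to 843 in RW. The part of these markers in the EC3 values was not tested. Without the cells above 2 mural marker UMIs, Notch3 was too low in EC3 to be tested, and Jag1 differed by -0.83 (edgeR adjusted p = 0.463).

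Receptor blockade was followed by called changes in 8 of 31 tests of members in 6 labels, 5 higher and 3 lower than RW. Th1 had 1 of 6 members called, EC1 had 4 of 7, EC3 had 3 of 8, and EC2, EC4 and F had none. DESeq2 called 8 as well, and 10 had an unadjusted edgeR p under 0.05. The share of all genes called was 34.4% in Th1, 17.8% in EC1, 5.91% in EC3, 15.5% in EC2, 21.1% in EC4 and 19.7% in F, so the share of members called was below that of all genes in Th1 and above it in EC1 and EC3. By direction, 17.1% of genes rose and 17.3% fell in Th1, 8.83% and 8.93% in EC1, and 3.47% and 2.44% in EC3. The direct comparison with ligand blockade called 4 of 34, and 9 had an unadjusted p under 0.05. The share of all genes called there was 22.3% in Th1, 13.6% in EC1, 1.14% in EC3, 10.5% in EC2, 17.2% in EC4, 16.1% in F and 3.75% in SM. Both blockades were set against the same RW pools.

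**Figure D3:**
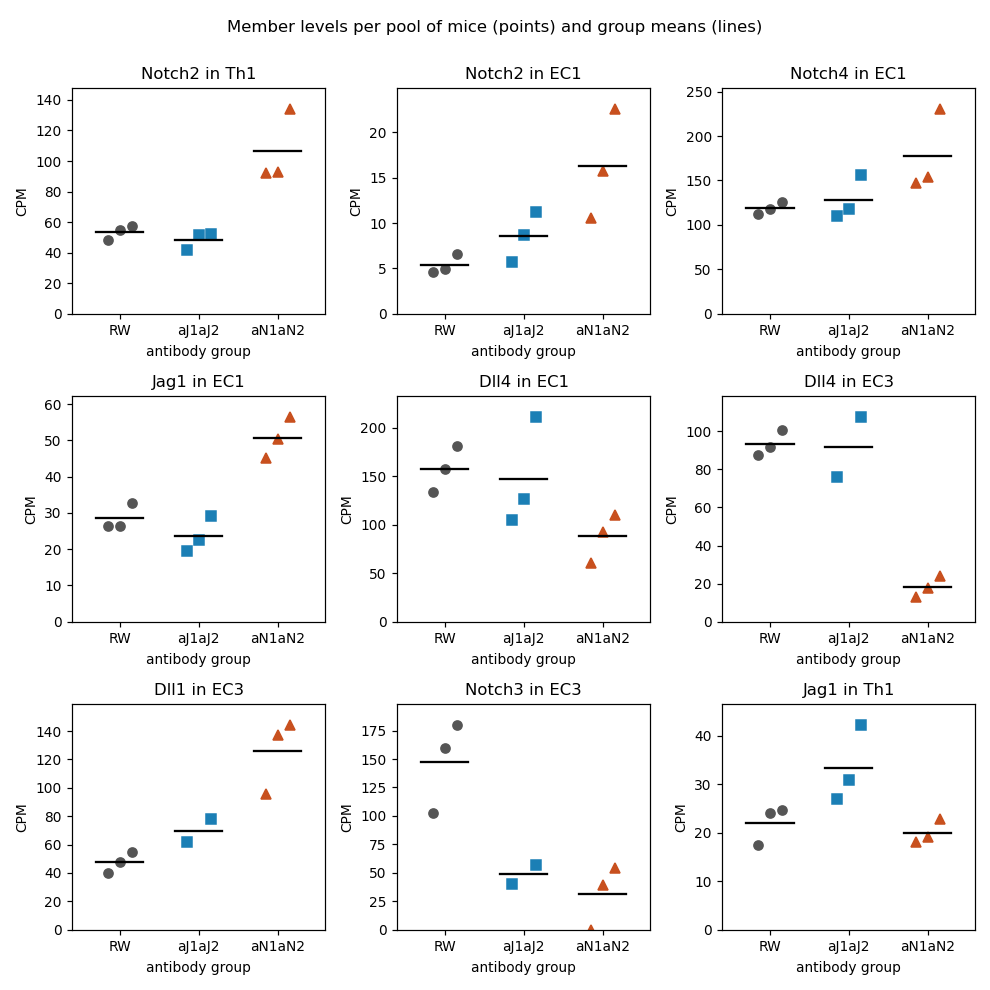
CPM per pool of mice for the 9 pairs of member and cell label called in at least 1 comparison, with group means as lines; aJ1aJ2 has 2 points in EC3. Notch2 in Th1 lies at 91.9 to 134 CPM in aN1aN2 and at most 57.6 in the other groups, and Dll4 in EC3 lies at 13.1 to 24.2 CPM in aN1aN2 and at 76.2 or more in the others.

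Notch2, one of the 2 blocked receptors, rose in thyrocytes. In Th1 it was at 93.0, 91.9 and 134 CPM in aN1aN2, at 51.7, 41.5 and 52.1 in aJ1aJ2 and at 57.6, 54.8 and 48.3 in RW. All 3 aN1aN2 pools lay above all 6 others. Of all Th1 genes, 47.4% had ranges that did not overlap between aN1aN2 and RW, and 37.4% between aN1aN2 and aJ1aJ2. The log2 rise was 0.96 over RW (SE 0.16, edgeR adjusted p = 0.000253) and 1.12 over aJ1aJ2 (SE 0.16, edgeR adjusted p = 0.000168). It was called in all 18 refits against RW and all 17 against aJ1aJ2, with rises of 0.71 to 1.06 and 0.96 to 1.23. Depth moved with the group: the median Th1 cell had 17624 UMIs in RW, 12946 in aJ1aJ2 and 6499.5 in aN1aN2. Thinned to 1000 UMIs, 4.94% of 425 RW cells (exact 95% interval 3.08 to 7.45), 4.80% of 396 aJ1aJ2 cells (2.91 to 7.39) and 14.1% of 348 aN1aN2 cells (10.6 to 18.2) had a Notch2 UMI. Unthinned, the shares were 58.1%, 50.8% and 56.0%. In Eryth2, a label that should lack the gene, 0 of 449 aN1aN2 cells had one after thinning, which allows up to 0.668%.

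Notch1, the other blocked receptor, was not called in any label. In Th1 it was at 50.6, 41.4 and 22.8 CPM in aN1aN2, with a log2 difference of -0.25 from RW (SE 0.19, edgeR adjusted p = 0.343). In EC1 it was at 226, 246 and 280 CPM, a difference of -0.11 (SE 0.13, edgeR adjusted p = 0.621). Its pools overlapped those of RW in each of the 5 labels where it was tested. A change of the size seen for Notch2 in Th1 lies outside 2 SE of each of these 2 values.

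The other thyrocyte members were not called against RW. Th1 Jag1 was at 19.0, 18.0 and 22.8 CPM in aN1aN2, a log2 difference of -0.14 from RW, but lay below all aJ1aJ2 pools, where it fell by 0.74 (SE 0.22, edgeR adjusted p = 0.0276). That call was lost without aJ1aJ2 4 (0.104), aN1aN2 1 (0.100) or aN1aN2 2 (0.113), without the deepest 5% of cells (0.711) and without Th1 cells above 2 endothelial marker UMIs (0.0517). Th1 Dll4 did not pass the filter: it was at 1.09, 0.600 and 1.20 CPM in aN1aN2, from 4 UMIs. The summed endothelial marker level in Th1 was 374 to 520 CPM in RW, 194 to 463 in aJ1aJ2 and 82.5 to 409 in aN1aN2, lowest in aN1aN2 3.

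In EC1, Dll4 fell while Notch4, Jag1 and Notch2 rose. Dll4 was at 92.7, 61.0 and 110 CPM in aN1aN2, all below RW, and fell by 0.85 on the log2 scale (SE 0.25, edgeR adjusted p = 0.0187). Notch4, its closest match over labels, was at 147, 231 and 154 CPM, all above RW, a rise of 0.57 (SE 0.18, edgeR adjusted p = 0.0262). Jag1 was at 56.5, 45.1 and 50.3 CPM, above all RW and all aJ1aJ2 pools. Its rise was 0.85 over RW (SE 0.24, edgeR adjusted p = 0.0169) and 1.08 over aJ1aJ2 (SE 0.26, edgeR adjusted p = 0.00566). Notch2, from 19 UMIs in aN1aN2 and 27 in RW, was at 22.6, 10.6 and 15.7 CPM, a rise of 1.62 (SE 0.47, edgeR adjusted p = 0.0186). These 4 of 7 members did not overlap between aN1aN2 and RW, and neither did 34.3% of all EC1 genes. Against aJ1aJ2, where Jag1 did not overlap, the share was 30.4%.

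Single pools decided several of the EC1 calls. Dll4 was not called without RW 2 (0.0655), aN1aN2 1 (0.0584) or aN1aN2 2 (0.136), and Notch4 not without RW 1 (0.0715), RW 2 (0.0620) or aN1aN2 2 (0.282). Jag1 was not called against RW without aN1aN2 1 (0.116) or without the deepest 5% of cells (0.115), and not against aJ1aJ2 without the same pool (0.0547) or cells (0.0639). Notch2 was not called without RW 3 (0.0510), aN1aN2 1 (0.203) or the deepest cells (0.0872). In the sum of EC1 to EC4, where 19.7% of genes were called, Dll4 (-0.76, SE 0.17, edgeR adjusted p = 0.00491) and Notch4 (0.68, SE 0.13, edgeR adjusted p = 0.00259) were called in all 18 refits. The labels in the sum were in other proportions, however: EC4, where Notch4 was highest in RW, gave 3.92% to 5.80% of the summed UMIs in RW pools and 18.9% to 23.4% in aN1aN2 pools, and EC1 64.1% to 78.6% and 48.4% to 50.8%. The part of this shift in the summed changes was not tested. Notch3 fell there too, by 1.06 (SE 0.25, edgeR adjusted p = 0.00862), in all 17 refits that gave a value. Between the blockades, with 13.5% of genes called in that sum, Dll1 rose by 1.04 (edgeR adjusted p = 0.0174), a call lost without aN1aN2 1 (0.0927) or aN1aN2 3 (0.0824). Notch4 rose by 0.60 (edgeR adjusted p = 0.00933) and Dll4 fell by 0.69 (edgeR adjusted p = 0.0143), and both calls were lost without aN1aN2 2 (0.0646 and 0.0776). Marker sums in EC1 moved with the group. RW pools had 12630 to 13681 CPM of endothelial markers and aN1aN2 pools 9323 to 9602. RW pools had 95.7 to 147 CPM of arterial markers and aN1aN2 pools 50.3 to 93.4, without overlap. In aJ1aJ2 pools the arterial sum was 152 to 204 CPM, above all RW pools. Gja5 and Bmx were at 0 UMIs in all 3 aN1aN2 pools, but Bmx was also at 0 in all 3 aJ1aJ2 pools, and Gja5 in RW 2 and aJ1aJ2 1. For venous markers the ranges were 169 to 186 and 260 to 306 CPM, and for thyrocyte markers 699 to 974 and 1322 to 1942. Their part in the changes was not tested.

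EC3 had the largest change of any member. Dll4 there was at 24.2, 18.0 and 13.1 CPM in aN1aN2, against 101, 91.5 and 87.5 in RW and 108 and 76.2 in aJ1aJ2. From 8 UMIs in aN1aN2 and 136 in RW, it fell by 2.34 on the log2 scale (SE 0.37, edgeR adjusted p = 0.00162), and against aJ1aJ2 it fell by 2.35 (SE 0.40, edgeR adjusted p = 0.00685). The first call was kept in all 16 refits. The second was lost without aJ1aJ2 3 (0.131), which leaves 1 aJ1aJ2 pool assumed to vary like the others, and without cells above 2 mural marker UMIs (0.0735). Without those cells the fall against RW was 2.08, with an edgeR adjusted p of 0.0208. Lymphatic marker sums in EC3 were lower in the aN1aN2 pools, at 747 to 1516 CPM, than in the RW pools, at 1835 to 3509. Endothelial and venous marker sums were higher in aN1aN2 without overlap, at 5987 to 6832 against 3938 to 4952 CPM and at 985 to 1950 against 596 to 843. The part of these markers in the Dll4 and Dll1 changes in EC3 was not tested.

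Dll1 moved the other way in EC3, and Notch3 fell. In EC3, 24.3% of all genes did not overlap between aN1aN2 and RW. Dll1 was at 137, 95.8 and 144 CPM in aN1aN2, all above RW, a rise of 1.39 (SE 0.27, edgeR adjusted p = 0.00713). The call was lost without cells above 2 mural marker UMIs (1.03, edgeR adjusted p = 0.217), with a minimum of 10 cells (0.121) and without the deepest 5% of cells (0.0541). Notch3 was at 0, 53.9 and 39.4 CPM, a fall of 2.12 (SE 0.46, edgeR adjusted p = 0.0123), called in all 15 refits that gave a value. All 15 of its UMIs in aN1aN2 were in the 16 of 92 EC3 cells with more than 2 mural marker UMIs. The mural marker sum in EC3 was 773 to 958 CPM in aN1aN2 against 2700 to 4350 in RW. The share of EC3 cells above 2 mural marker UMIs was 13.5%, 16.7% and 24.0% in aN1aN2, the last next to the lowest RW pool at 24.1%. The median EC3 cell of these aN1aN2 pools had 3093, 5071.5 and 3903 UMIs, against 5175.5 to 7011 in RW, and the part of depth was not tested. Of the 7 markers, 4, 5 and 7 were detected in aN1aN2 1, 2 and 3, with Cspg4 and Kcnj8 at 0 UMIs in both of the first and Myh11 in aN1aN2 1. Jag1 in EC3 was at 170, 168 and 328 CPM, a log2 difference of -0.58 (SE 0.25, edgeR adjusted p = 0.201), called only without aN1aN2 3 (0.0402) among its 16 refits. In SM itself, tested only between the blockades, Notch3 was at 946, 639 and 1187 CPM in aN1aN2 against 557 and 781 in aJ1aJ2, with 3.75% of genes called there and Notch3 not (edgeR adjusted p = 0.511).

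**Figure D4:**
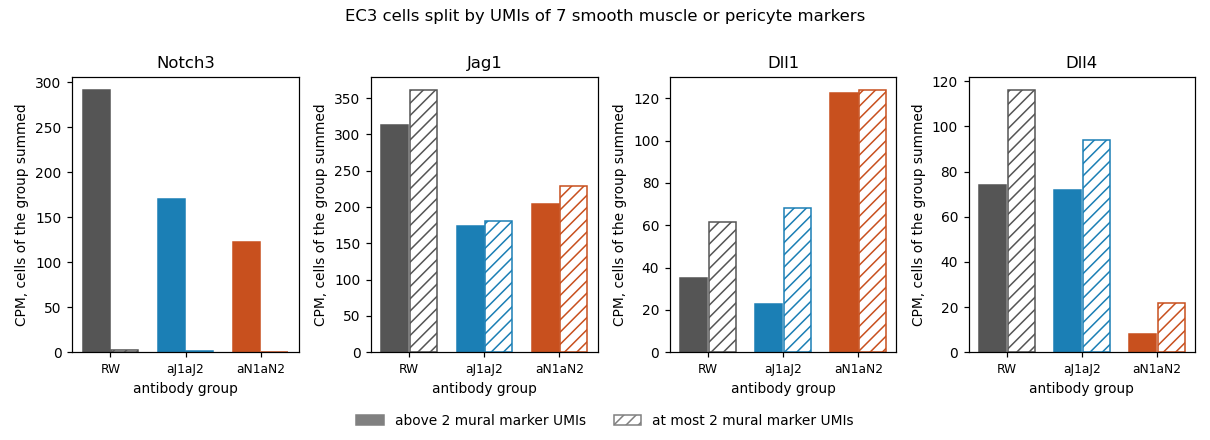
CPM of 4 members (vertical axes) in EC3 cells summed over the pools of each group, for cells above 2 UMIs of 7 mural markers (filled bars) and the others (hatched bars); sums have no error bar. Notch3 is at 291 CPM in the filled RW bar and 2.79 in the hatched one, while the Dll4 bars of aN1aN2 are at 8.18 and 21.7 CPM.

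In EC4 and F no member was called. EC4 Dll4 was at 125, 132 and 103 CPM in aN1aN2, below all RW pools, with a log2 difference of -0.65 (SE 0.28, edgeR adjusted p = 0.110). Of all EC4 genes, 36.1% did not overlap between these groups. Against aJ1aJ2 the difference was -0.70 (SE 0.27, edgeR adjusted p = 0.0805), called without aJ1aJ2 4 (0.0353). Where tested, then, Dll4 was below RW in mean in EC1, EC2, EC3 and EC4, with calls in EC1 and EC3. F Notch2 was at 52.0, 60.9 and 86.2 CPM in aN1aN2 against 77.4 to 111 in RW, a log2 difference of -0.53 (SE 0.30, edgeR adjusted p = 0.242). M, S and T1 had fewer than 20 cells in every aN1aN2 pool and were not tested at that minimum. With a minimum of 10 cells, S had 2 aN1aN2 pools against 3 RW pools, with 2 and 34 Notch2 UMIs, a log2 difference of -1.73 (SE 1.22, edgeR adjusted p = 0.478), and 1.27% of S genes were called. T1 then had 3 pools in each group, but Notch2, at 21 and 38 UMIs, did not pass the filter on low counts.

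**Figure D5:**
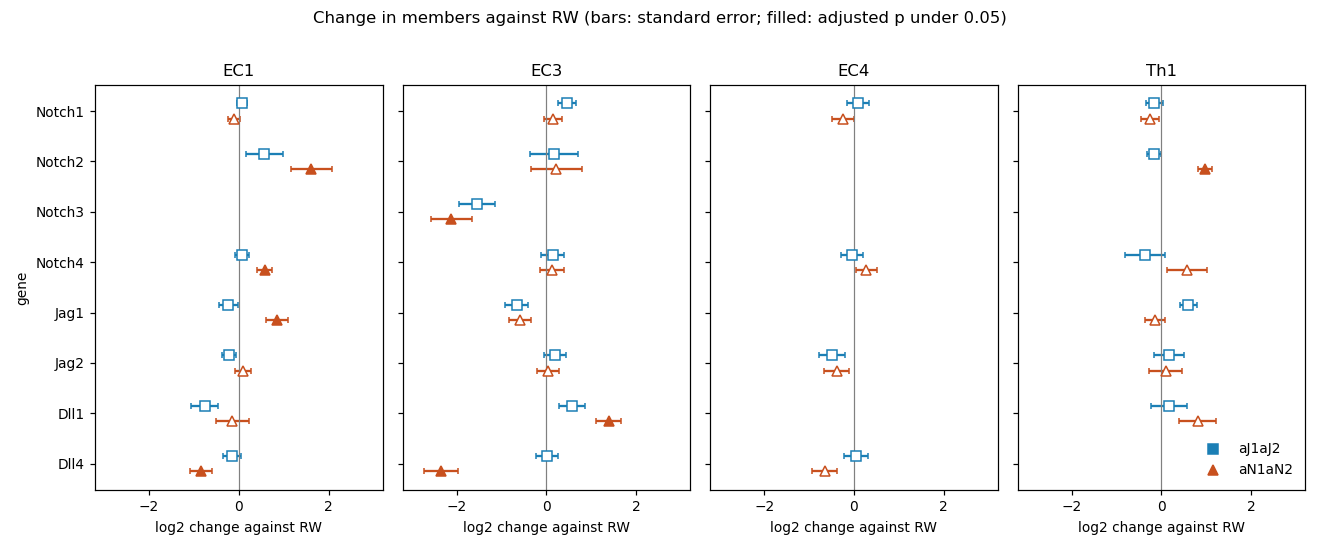
Log2 change against RW (horizontal axes) of each member that passed the filter in EC1, EC3, EC4 and Th1, for ligand blockade (blue squares) and receptor blockade (orange triangles); bars are standard errors and filled symbols passed the threshold. All 8 filled symbols are orange, with Dll4 left of 0 in EC1 and EC3 and Notch2 right of 0 in EC1 and Th1.

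Whether a member changed differently in thyrocytes than elsewhere was tested by the label-by-group term, with each pool as a block. Notch2 did: its change under receptor blockade was lower in F than in Th1 by 1.51 on the log2 scale against RW (a difference of -1.51, SE 0.33, edgeR adjusted p = 0.00210) and by -1.63 against aJ1aJ2 (SE 0.31, edgeR adjusted p = 0.000572). In these fits 5.47% and 3.46% of genes were called. Jag1 also did: between the blockades its change was higher in EC1 than in Th1 by 1.79 (SE 0.31, edgeR adjusted p = 0.000888), with 4.92% of genes called. The change of Notch2 in EC1 was not shown to differ from that in Th1 (0.59, SE 0.42, edgeR adjusted p = 0.473, 8.68% of genes called), nor was its change in EC3 (-0.84, SE 0.50, edgeR adjusted p = 0.440, 3.02% called). For ligand blockade against RW no member was called in EC1, EC3 or F, where 0.369%, 0.0198% and 0.338% of genes were. The nearest was Jag1 in EC1 (-0.87, SE 0.25, edgeR adjusted p = 0.214).

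Genes that act with the members were taken from 4 lists. The lists were 21 modifiers of ligands and receptors, 10 genes of receptor processing, 15 nuclear cofactors and 21 targets. In EC1 after receptor blockade, 5 of 16 tested modifiers rose and 2 fell, beside 17.8% of all genes called (8.83% higher and 8.93% lower), with a list median of 0.12 on the log2 scale. Mfng, a Fringe enzyme that adds sugar to Notch receptors and changes their response to ligands, rose from 98.6 ± 13.3 to 209 ± 7.36 CPM (SD, n = 3 pools each), a log2 change of 1.07 (SE 0.15, edgeR adjusted p = 1.77e-05). Eogt, another glycosyltransferase acting on Notch, fell from 119 to 43.5 CPM in mean, a change of -1.44 (SE 0.26, edgeR adjusted p = 0.000358). Ccn3, a secreted protein that binds Notch1, and Neurl1b, a ubiquitin ligase of Delta ligands, rose by 2.17 and 1.51. Itch also rose, and Numb, which antagonises Notch, fell by 0.73. In EC4, 3 of 8 modifiers rose (Mfng, Lfng and Neurl1b) and 1 fell (Eogt), beside 21.1% of all genes, and in Th1 2 of 11 rose (Itch among them) and 1 fell (Neurl3), beside 34.4%. In EC2 and F none of 3 and 6 was called.

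Receptor processing genes were called at about the rate of all genes in EC1 and Th1 with both directions counted, and above it among genes called higher. In EC1, 2 of 9 tested rose and 0 fell, beside 17.8% of all genes called, 8.83% higher. In Th1, 4 of 10 rose and 0 fell, beside 34.4% called, 17.1% higher. In EC4, 1 of 6 rose (Furin, 0.90) and 1 fell (Adam10, a protease that cuts ligand-bound receptors, -0.79), beside 21.1%. The list medians in EC1 and Th1 were 0.27 and 0.32. Over all tested genes the medians were -0.01 and 0.02. Furin, which cleaves the receptor precursor, rose in EC1 from 64.5 ± 3.05 to 158 ± 29.2 CPM (SD, n = 3 pools each, log2 change 1.30, edgeR adjusted p = 4.78e-06). Those in Th1 included Furin (0.44) and the gamma-secretase subunits Aph1a (0.52) and Aph1c (1.93). Of the nuclear cofactors, 3 of 15 rose in EC1 (Spen and Ep300 among them) and 4 of 15 in Th1 (Maml1, Maml3, Ep300 and Crebbp), and 0 fell in either. These cofactor counts are near the share of all genes called in either direction in EC1 and below it in Th1. Of all genes, 8.83% were called higher in EC1 and 17.1% in Th1, and the cofactor counts lie above both of these shares.

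Of the targets, 1 of 12 tested in EC1 rose and 7 fell after receptor blockade, with a median of -0.85, beside 17.8% of all genes called there. Hey1, a direct Notch target in endothelium, fell from 29.9 ± 12.8 to 3.73 ± 2.22 CPM (SD, n = 3 pools each, 162 and 4 UMIs), a log2 change of -3.10 (SE 0.61, edgeR adjusted p = 0.000827). Hey2 fell by 2.11 and Efnb2, an arterial ephrin, by 1.27. Ccnd1, a cyclin of the G1 phase, fell by 3.77. The riser was Cdkn1a, the cell cycle inhibitor p21, from 168 ± 96.2 to 1108 ± 82.8 CPM. It rose in Th1 too, by 1.90, where 2 of 11 targets rose (with Myc) and 3 fell (Ccnd1, Heyl and Dtx4), beside 34.4% of all genes called, 17.1% higher and 17.3% lower. The Th1 list median was -0.24. In F the list median was positive, at 0.51: of 7 targets Myc and Cdkn1a rose and Hes1 fell, beside 19.7% of all genes. In EC4, 1 of 5 rose (Cdkn1a) and 2 fell (Ccnd1 and Efnb2), beside 21.1%, and in EC2, 1 of 6 rose (Cdkn1a) and 1 fell (Ccnd1), beside 15.5%. Under ligand blockade the targets had 2 calls among 12 tested in EC1, beside 1.42% of all genes, both lower: Nrarp, a feedback inhibitor of Notch, from 127 ± 3.88 to 67.0 ± 34.1 CPM (SD, n = 3 pools each, log2 change -1.04, edgeR adjusted p = 0.0185), and Cdkn1a by 2.06. In Th1 no gene of the 4 lists was called under ligand blockade. In EC3 after receptor blockade 2 of 10 modifiers and 2 of 9 processing genes rose, 0 of 12 cofactors were called, and of 8 targets 1 rose and 3 fell, beside 5.91% of all genes called.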

How the data were processed

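Single-cell RNA was measured in 9 thyroid pools, 3 per group. The deposited tables hold UMI counts per gene and cell with a cell label for each cell; Cell Ranger and GRCm38 are named in the submitters' processing notes, and versions are not given in the sources used here. Of 52636 identifiers, 52403 were matched to symbols, and the rest held 0.0293% of UMIs. No column belonged to a sample outside the series, and no doublet caller was run. Counts were summed per sample and label, samples with under 20 cells of a label were left out, and each label was fitted with edgeR 4.0.16 in R 4.3.3 (filterByExpr, TMM, quasi-likelihood test, 3 group means, Benjamini-Hochberg adjustment over all genes, threshold 0.05). CPM is the count over the TMM-adjusted total. Intervals are exact (Clopper-Pearson, 95%) and cover counting error only, and a count of 0 allows up to 3 counts. Shares were thinned to 1000 UMIs per cell. The scripts were tested on simulated counts. Alternatives were DESeq2 1.42.0, other filters and cell minimums, the series as a term, a replicate block and leaving out each pool; 2 splits by marker UMIs were added after seeing the data. The genes named are the 8 members, the 3 genes most like each, and called genes of the 4 pathway lists, up to 4 per direction, label and list. Some genes that the rule names are not reported here. The members and lists were chosen with earlier results of these data known. The p-values measure the spread between pools.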

Additional observations from a re-analysis of the deposited data

Results flagged for a closer look

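In 3 cases a member's change differed between a label and Th1 by the label-by-group term, tested by quasi-likelihood in edgeR with p adjusted by Benjamini-Hochberg. The change of Notch2 after receptor blockade was lower in F than in Th1 by 1.51 on the log2 scale against RW (-1.51, SE 0.33, adjusted p = 0.00210) and differed by -1.63 against aJ1aJ2 (SE 0.31, adjusted p = 0.000572). The F pools were at 52.0, 60.9 and 86.2 CPM in aN1aN2 and at 77.4 to 111 in RW. The Th1 pools were at 93.0, 91.9 and 134 CPM in aN1aN2 and at 48.3 to 57.6 in RW. Within F alone the change of Notch2 was not called. The change of Jag1 between the blockades was higher in EC1 than in Th1 by 1.79 (SE 0.31, adjusted p = 0.000888), with EC1 at 45.1 to 56.5 CPM in aN1aN2 and 19.6 to 29.2 in aJ1aJ2, and Th1 at 18.0 to 22.8 and 27.0 to 42.2 CPM.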

How the results depend on the processing

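With no filter on low counts, 1 member was called in place of 0 for ligand blockade against RW (Notch3 in EC3), and 1 difference of change between labels in place of 0. Leaving out 1 pool gave 0 to 1 calls for ligand blockade, 5 to 10 in place of 8 for receptor blockade against RW (lowest without aN1aN2 1, highest without aN1aN2 3), and 2 to 5 in place of 4 between the blockades (lowest without aN1aN2 1). Receptor blockade against RW gave 5 calls with at least 50 cells, where EC3 has too few, and 5 without the deepest 5% of cells. Without cells above 2 mural marker UMIs it gave 6 calls, a choice made after seeing the data. The difference between pools 1 and 2 of RW did not follow that of aN1aN2 (r of -0.04 in Th1, 0.01 in EC1 and -0.02 in EC4). With a single difference per group, this cannot decide whether the numbers pair the pools. These 2 groups alone share numbers from titles. RW 3 and aJ1aJ2 1 have no number in their titles and carry theirs as names only. A replicate block could be fitted only to pools 1 and 2 of RW and aN1aN2 and gave 6 calls, with Notch2 in Th1 at 0.71 and Dll4 in EC3 at -2.19; Dll1 in EC3 was not called (edgeR adjusted p = 0.0577). Notch2 in S, -0.64 for ligand blockade, turned to 1.08 with the series as a term and 1.15 without RW 3, and was called at -1.67 without RW 1; only 2 RW pools have 20 S cells, so each of the last 2 values rests on 1 RW pool assumed to vary like the aJ1aJ2 pools. Thinned to 2000 UMIs, the highest shares in RW were 59.5% for Notch1, 42.9% for Notch4, 35.7% for Jag2 and 42.9% for Dll4 in EC4. They were 30.8% for Notch2 in S, 75.9% for Notch3 in SM (29 cells) and 40.3% for Jag1 and 8.40% for Dll1 in EC3. Of 268 EC4 cells, 142 were under 1000 UMIs, so at least these did not enter and the EC4 shares rest on its deeper cells. Of the alternatives to single named results, 583 kept direction and call, 18 gained the call, 32 lost it and 2 reversed. For reversed, moved or lost values the cause was not tested, except where fewer cells or samples entered.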
